A study of Mus musculus with 6 samples.

Results

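Mlph (melanophilin), the Rab27 GTPases, myosin Va and the effectors that tie Rab27 to motors and to the plasma membrane were followed in pancreatic islets of mice that lack Neurod1, a basic helix-loop-helix transcription factor, in beta cells. The set holds 10 of the 23284 genes in the count files: Rab27a and Rab27b; the Slac effectors Mlph, Exph5 (Slac2-b) and Myrip (Slac2-c); the motor gene Myo5a; and the Slp effectors Sytl1, Sytl2, Sytl4 and Sytl5. It was built around Mlph, which was chosen by its large fall in the comparison described here, and the other genes were added by their role with results of the same comparison known. Fold changes and calls of the 10 genes between genotypes are therefore a description and support nothing on their own, and no p-value of this fit is printed for them. All 10 were found by symbol, and all 10 passed the filter on low counts.

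The knockout mice were Neurod1-floxed/floxed; Rip-Cre+, in which an insulin promoter drives the Cre recombinase, and the controls were Neurod1-floxed/floxed without Cre. All were 12 weeks old, with the strain labelled C56BL/J, and nothing else was given to either group. Each genotype had 3 bulk RNA-seq libraries of isolated islets, numbered 4, 5 and 6 (knockout) and 7, 10 and 16 (control), and the labels do not say whether each came from its own animal, so the spread may be technical. An effect of Cre or its transgene and one of the Neurod1 deletion cannot be told apart, Rip-Cre is known to act in some brain neurons too, and the islets still hold other endocrine cells and some exocrine and vascular cells.

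Rab27 proteins sit on the membrane of secretory granules and of pigment granules. In their active form they bind effectors: the Slac proteins Mlph and Myrip attach the granule to myosin motors and actin, and the Slp proteins, which carry C2 domains, hold it at the plasma membrane. Mice with mutated Mlph (leaden), Rab27a (ashen) or Myo5a (dilute) have pale coats, because melanosomes are not held at the cell edge. In beta cells Rab27a and Sytl4 (granuphilin) are known for the docking of insulin granules, and Myrip for binding granules to actin and myosin.

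Total counts ranged from 12206393 to 20412435 per library. Values of single libraries are listed in the order 4, 5, 6 for the knockout and 7, 10, 16 for the control, and ± is the SD of the 3 libraries of a genotype. Neurod1 had 28.4, 29.8 and 31.3 counts per 1e+06 counts (CPM, with library sizes scaled by TMM factors) across the knockout libraries, against 198, 177 and 141 CPM across the controls, in the direction of the labels. The 10 beta cell markers summed to 174515 to 194974 CPM in control and 135025 to 147655 CPM in knockout libraries, and each was detected. Without Ins1 the sums of the other 9 overlapped, at 129329 to 142619 and 131903 to 141698 CPM. Of the 10, Pdx1, Nkx6-1 and Slc2a2 were called higher, Ins1, G6pc2 and Slc30a8 lower, and Ins2 did not pass (log2 0.03, SE 0.10). The 22 acinar markers ranged from 14883 to 52059 CPM in control and from 5231 to 15298 CPM in knockout libraries, with control library 16 next to knockout library 5. The 10 endothelial markers ranged from 945 to 967 CPM in control and from 621 to 702 CPM in knockout libraries, and the 9 stromal markers from 1022 to 1384 and from 731 to 935 CPM. Duct, delta cell, nerve and leukocyte marker sums overlapped between genotypes, and alpha cell marker sums were 36691 to 50834 CPM in control and 26800 to 34576 CPM in knockout libraries. Values with the acinar level in the model are given with each of the 10 genes, and the part of the other cell types was not tested. Of the controls only library 16 lay near the knockout libraries in acinar level, so that fit separates acinar level from genotype poorly. The SEs of all 10 genes were larger in it, and a call lost there can reflect precision alone.

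The sequences before the start of Mlph and of Exph5 are shown because these related Slac genes moved in opposite directions, and capitals mark the E-box CANNTG, the kind of hexamer that basic helix-loop-helix factors bind. Both come from RefSeq, build GRCm38.p6, plus strand, and begin 250 bases before the start; the Mlph stretch ends where the first exon of the GENCODE annotation begins.
Mlph, chr1:90914850-90915084: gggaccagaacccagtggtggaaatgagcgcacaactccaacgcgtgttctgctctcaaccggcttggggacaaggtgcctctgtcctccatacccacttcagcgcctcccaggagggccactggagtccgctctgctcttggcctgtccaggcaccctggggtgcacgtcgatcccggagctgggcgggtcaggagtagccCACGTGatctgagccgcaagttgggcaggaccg
Exph5, chr9:53301420-53301669: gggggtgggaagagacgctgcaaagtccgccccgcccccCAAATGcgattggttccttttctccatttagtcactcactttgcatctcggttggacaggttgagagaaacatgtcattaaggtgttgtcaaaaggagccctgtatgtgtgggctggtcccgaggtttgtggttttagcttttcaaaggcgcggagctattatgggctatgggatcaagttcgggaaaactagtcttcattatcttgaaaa

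In the 250 bases before the start, Mlph had 2 E-boxes, CACGTG beginning 48 bases before it and CAGCTG beginning 9 bases before it, the latter inside the GENCODE exon and not printed. Exph5 had 1, CAAATG at 211 bases, and Myrip had 1, CAGGTG at 147 bases. The windows of Sytl4 and Myo5a held 0, those of Sytl5 and Sytl1 3 and 2, and the windows of Rab27a at its alternative starts 1 and 6. CANNTG, which reads as the same pattern on both strands, was in 66.2% of 32851 promoter windows of this length, and 31.8% held 2 or more. CAGCTG, its own reverse complement and one form of CANNTG, was in 13.0% of windows, and among the genes searched Mlph, Sytl1 and the second Rab27a window held it. CAGATG or its reverse complement, also a form of CANNTG, was in 14.4% of all windows and in 0 of those of these genes. Windows of 8 of the 10 genes were searched, and those of Rab27b and Sytl2 were not. A match describes letters in this window and not a bound site.

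Of the 10 genes, 3 rose in the knockout and 2 fell (adjusted p under 0.05 in the fit over all genes), and 5 did not pass. Over the 14770 genes tested, 11.8% were called higher and 12.6% lower. The knockout libraries lay wholly above the controls for 3 genes and wholly below for 2, against 20.0% and 22.0% of all genes tested. The median log2 fold change of the 10 genes was 0.13, and that of all genes tested was -0.01. Mlph and Myrip fell, Exph5, Myo5a and Sytl4 rose, and Rab27a, Rab27b, Sytl1, Sytl2 and Sytl5 did not pass.

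**Figure D1:**
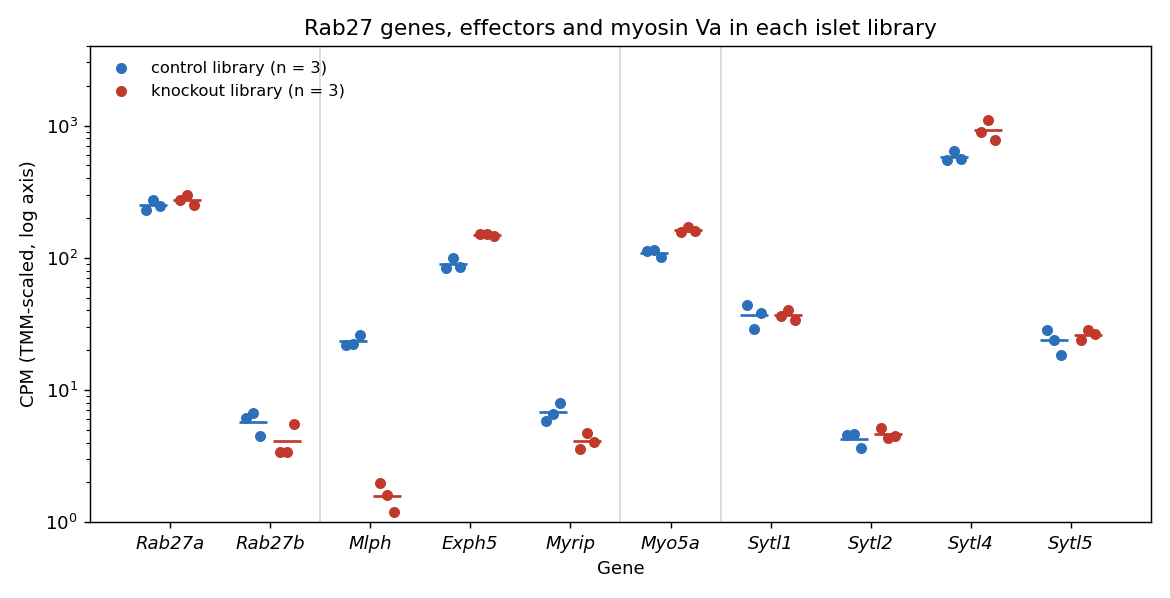
TMM-scaled CPM (log axis) of each gene in the 3 control libraries (blue) and the 3 knockout libraries (red), with a line at each group mean. Mlph lies between 1.21 and 1.97 CPM with the deletion and between 22.1 and 26.3 CPM without it, while Rab27a overlaps between genotypes.

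Mlph, the Slac effector that joins Rab27a to myosin Va, was the member with the widest gap between genotypes. Its counts were 32, 24 and 15 across the knockout libraries, against 427, 452 and 383 across the controls. On the CPM scale these were 1.97, 1.61 and 1.21, against 22.1, 22.2 and 26.3. The lowest control library stood far above the highest knockout library, and the libraries of each genotype were close together. The knockout mean was 1.59 ± 0.38 CPM and the control mean 23.5 ± 2.41 CPM (SD, n = 3), a log2 fold change of -3.86 (SE 0.18), or 14.5-fold lower. This was the 8th lowest log2 fold change of the 14770 genes. In the authors' deposited table the log2 fold change of Mlph was -3.87. Control library 16, with 14883 CPM of acinar markers, had 26.3 CPM of Mlph, and knockout library 5, with 15298 CPM of acinar markers, had 1.61 CPM. With the log2 acinar marker sum added to the model (below, the acinar covariate) it was -4.17 (SE 0.21). In bulk islets, fewer cells that express a gene and less of its RNA per cell cannot be told apart.

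Exph5 (exophilin-5), a large Rab27 effector of the Slac group, moved the other way. It had 151, 151 and 146 CPM across the knockout libraries, against 84.3, 99.0 and 85.4 CPM across the controls. All knockout libraries lay above all controls, and they differed among themselves by only a few CPM. The means were 150 ± 3.27 and 89.6 ± 8.17 CPM (SD, n = 3), a 1.67-fold rise (log2 0.74, SE 0.08), and the value was 0.78 (SE 0.13) with the acinar covariate.

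Myrip, which joins Rab27 to myosin Va and myosin VIIa and to actin, was a low gene in these islets. It had 3.56, 4.69 and 4.02 CPM across the knockout libraries, against 5.78, 6.57 and 7.96 CPM across the controls, from 50 to 134 counts per library. The groups did not overlap, but the highest knockout and the lowest control library were close. The knockout mean was 1.65-fold lower (log2 -0.72, SE 0.20). The call was lost when knockout library 4 or 6 or control library 10 or 16 was left out (log2 -0.61, -0.70, -0.75 and -0.60), and with the acinar covariate (-0.82, SE 0.30). In the authors' deposited table its adjusted p was 0.0718.

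Myo5a, the heavy chain of myosin Va, the actin motor that Mlph binds, was higher in the knockout. It had 157, 171 and 160 CPM across the knockout libraries, against 112, 115 and 102 CPM across the controls. All knockout libraries lay above all controls. The means were 163 ± 7.37 and 110 ± 6.59 CPM (SD, n = 3), a 1.48-fold rise (log2 0.57, SE 0.07), and the value was 0.71 (SE 0.10) with the acinar covariate. Motor and adaptor moved in opposite directions. The log2 ratio of Mlph to Myo5a counts was -6.32, -6.73 and -7.05 across the knockout libraries, against -2.34, -2.37 and -1.96 across the controls. A ratio of counts within a library does not depend on how libraries are scaled.

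**Figure D2:**
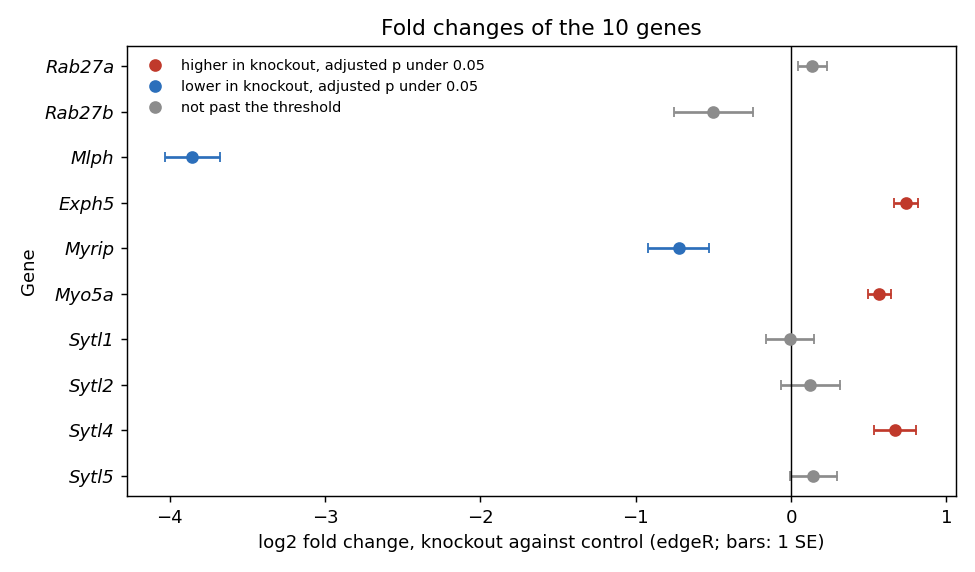
Log2 fold change of each gene, knockout against control, with 1 SE either side, coloured by the call at an adjusted p under 0.05 over all genes. Mlph stands at -3.86, and every other gene lies between -0.72 and 0.74.

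Rab27a, the GTPase of granule membranes, had 274, 298 and 253 CPM across the knockout libraries, against 230, 275 and 246 CPM across the controls. The groups overlapped, and the log2 fold change was 0.14 (SE 0.09), which did not pass, and 0.17 (SE 0.15) with the acinar covariate. Rab27b, its close relative, had 3.38, 3.42 and 5.54 CPM across the knockout libraries, against 6.09, 6.67 and 4.53 CPM across the controls. These groups overlapped too, with knockout library 6 above control library 16, and the log2 fold change was -0.50 (SE 0.25). The Rab27b level was highest in control libraries 7 and 10, which also held the most acinar markers (52059 and 44339 CPM), and the log2 fold change was -0.07 (SE 0.38) with the acinar covariate. Knockout library 6 had more Rab27b than control library 16 and fewer acinar markers (11429 CPM). Rab27b is known from zymogen granules of acinar cells, and the part of these cells in its level was not tested.

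**Figure D3:**
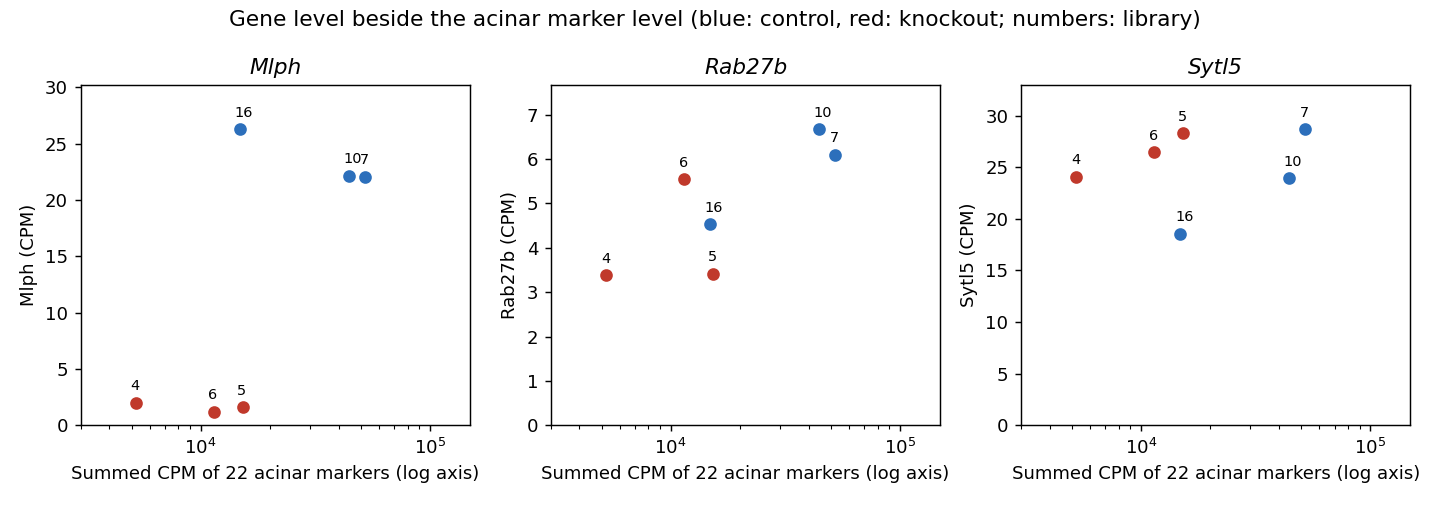
CPM of Mlph, Rab27b and Sytl5 (linear axes from 0) against the summed CPM of 22 acinar markers (log axis) in each library, numbered by library, blue for control and red for knockout. Control library 16 and knockout library 5, the nearest in acinar level between genotypes, had 26.3 and 1.61 CPM of Mlph. The part of acinar cells in these levels was not tested. The highest Rab27b values are those of control libraries 7 and 10, and knockout library 6 (5.54 CPM) lies above control library 16 (4.53 CPM).

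Sytl4, or granuphilin, which binds Rab27a and holds insulin granules at the plasma membrane, was higher in the knockout. It had 894, 1109 and 776 CPM across the knockout libraries, against 549, 641 and 560 CPM across the controls. All knockout libraries lay above all controls, although knockout library 5 was well above the other knockout libraries. The means were 926 ± 169 and 583 ± 49.9 CPM (SD, n = 3), a 1.59-fold rise (log2 0.67, SE 0.13). With the acinar covariate the log2 fold change was 0.80 (SE 0.21), just short of the threshold.

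The other Slp genes did not pass. Sytl1, an effector of exocytosis known from leukocytes and exocrine cells, had 33.6 to 40.3 CPM across the knockout and 28.7 to 44.1 CPM across the control libraries (log2 -0.01, SE 0.15, or 0.03, SE 0.26, with the acinar covariate), with the knockout range inside that of the control. Sytl2, which binds acidic lipids of the plasma membrane, was low, at 4.36 to 5.16 CPM across the knockout and 3.64 to 4.66 CPM across the control libraries (0.12, SE 0.19, or 0.21, SE 0.33, with the covariate). Sytl5 had 24.1, 28.3 and 26.4 CPM across the knockout libraries, against 28.7, 23.9 and 18.5 CPM across the controls (0.14, SE 0.15). With the acinar covariate Sytl5 passed, at 0.59 (SE 0.16), and the cause was not tested.

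To compare levels between genes, CPM was divided by the length of the longest protein-coding GENCODE M21 transcript. In control islets Sytl4 was highest, at 155 ± 13.3 CPM per kb (SD, n = 3), and Rab27a followed at 79.0 ± 7.11 CPM per kb. Sytl1 (19.0 ± 3.97), Exph5 (15.03 ± 1.37), Sytl5 (10.3 ± 2.20) and Myo5a (9.36 ± 0.56 CPM per kb) came next, and the ranges of Sytl1 and Exph5, and of Sytl5 and Myo5a, overlapped. Mlph had 5.22 ± 0.54 CPM per kb, above Myrip (1.38 ± 0.22), Sytl2 (1.12 ± 0.15) and Rab27b (0.84 ± 0.16), of which Myrip and Sytl2, and Sytl2 and Rab27b, overlapped. In the knockout Mlph was the lowest of the 10, at 0.35 ± 0.08 CPM per kb, and Exph5 stood behind Sytl4 and Rab27a at 25.1 ± 0.55 CPM per kb. With coding length in place of transcript length Rab27a came before Sytl4, and 9 of the 10 places in the control order changed. The transcripts used for Exph5 (5880 coding bases of 5957) and Sytl5 (2259 of 2301) are almost wholly coding, whereas that of Mlph has 1770 coding bases of 4499.

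Shares within each family do not depend on how libraries are scaled. Of the summed Slac level per kb, Mlph made up 24.2%, 21.5% and 26.8% across the controls, against 1.64%, 1.34% and 1.05% across the knockout libraries. Exph5 went from 69.4 ± 3.45% to 95.5 ± 0.35% of that sum and Myrip from 6.37 ± 0.92% to 3.17 ± 0.42% (SD, n = 3). The summed Slac level itself was 21.6 ± 1.33 CPM per kb in control and 26.3 ± 0.64 CPM per kb in knockout islets. With coding length the Mlph share was 42.6 ± 3.25% in control and 3.21 ± 0.71% in knockout islets, and the summed level was 31.1 ± 1.84 and 27.9 ± 0.78 CPM per kb, so the direction of the sum depends on the length used. Rab27a made up 99.0 ± 0.19% of the Rab27 level in control and 99.3 ± 0.26% in knockout islets. Sytl4 made up 83.6 ± 3.25% of the level of the 4 Slp genes in control and 88.6 ± 1.14% in knockout islets, and the sum went from 186 ± 9.996 to 278 ± 47.2 CPM per kb.

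**Figure D4:**
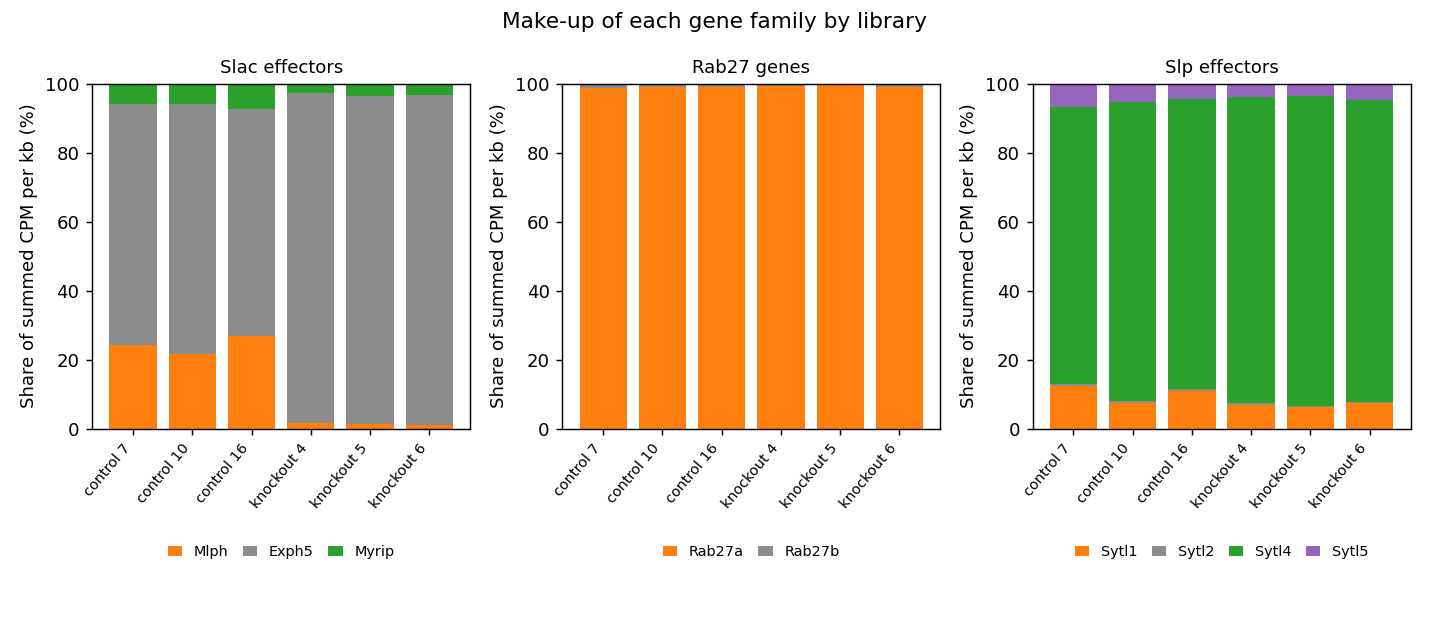
Share of each gene in the summed CPM per kb of its family, by library, for the Slac, Rab27 and Slp genes. The Mlph share is 21.5% or more in each control library and 1.64% or less in each knockout library, while Rab27a and Sytl4 make up most of their families in all 6.

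The genes whose pattern over the 6 libraries was nearest to that of Mlph were Gm4791, P2ry6, Ins1, Cyp4f39 and Olfm4, by Euclidean distance of centred log2 CPM among 11363 genes with at least 5 CPM in control. Their distances were 0.49, 0.73, 0.73, 0.85 and 1.04, and Pearson's r was between 0.977 and 0.997, a description over 6 libraries that is mostly the gap between genotypes. Ins1, an insulin gene, went from 48668 ± 3300 to 4307 ± 1529 CPM (SD, n = 3). P2ry6, a receptor for nucleotides, went from 43.2 ± 6.99 to 4.29 ± 0.80 CPM. Of the 7 melanocyte markers in the files, the pigment enzymes Tyr and Tyrp1 had 0 counts in every library, and Pmel, a melanosome matrix protein, had 6 to 11. Dct, a further melanin pathway enzyme, fell from 3.84 ± 0.41 to 1.53 ± 0.06 CPM (n = 3 per genotype; log2 -1.32, SE 0.23, edgeR adjusted p = 0.00402). Mitf, the factor of the pigment lineage, had a control mean of 8.75 ± 1.32 CPM and a knockout mean of 6.85 ± 1.86 CPM and did not pass (log2 -0.36, SE 0.21). These pigment genes were added after their values were seen, so their values, the adjusted p of Dct included, are a description.

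The rest of the Rab27 pathway was read from a list of 17 genes of other effectors, regulators and lipid attachment. Of the 16 tested, 4 rose, 1 fell and 11 missed the threshold (11.8% and 12.6% of all genes tested were called higher and lower), with a median log2 fold change of 0.07 against -0.01 over all genes tested; Rph3a had too few counts to be tested. Rph3al (Noc2), a Rab3 and Rab27 effector of endocrine granules, fell from 61.1 ± 9.003 to 17.5 ± 0.19 CPM (n = 3 per genotype; log2 -1.80, SE 0.11, edgeR adjusted p = 3.0e-05). Chml, an escort protein for attaching lipid to Rab proteins, rose from 17.3 ± 0.29 to 53.3 ± 7.003 CPM (1.62, SE 0.10, adjusted p = 3.1e-05). Sytl3, the remaining Slp gene, rose from 2.21 ± 0.17 to 5.53 ± 1.58 CPM (1.32, SE 0.25, adjusted p = 0.00626). Iqgap1, a scaffold that binds Rab27a in its inactive form, rose by 0.46 (SE 0.10, adjusted p = 0.0115), and Gdi2, which takes Rab proteins off membranes, by 0.26 (SE 0.07, adjusted p = 0.0238). The call of Gdi2 was lost when knockout library 4 or 5 or any 1 control library was left out, and with the acinar covariate (highest adjusted p = 0.161). Its log2 fold change was 0.25 to 0.29 in those fits on fewer libraries and 0.26 (SE 0.11) with the covariate. Madd, the exchange factor of Rab3 and Rab27, was at -0.24 (SE 0.08, adjusted p = 0.0682) and was called lower by DESeq2 (adjusted p = 0.0378). This list and those of motor and docking genes below were chosen with earlier results of these data known. Genes were named from them mostly by the smallest p, so their values, adjusted p included, are a description.

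Motor genes moved both ways. All 27 listed were tested: 6 rose, 7 fell and 14 missed the threshold, beside 11.8% higher and 12.6% lower over all genes tested. The median was -0.08, against -0.01. Among myosins, Myo1e rose by 0.72 on the log2 scale (SE 0.12) and the reverse-directed motor Myo6 by 0.59 (SE 0.09), while the nonmuscle myosin Myh10 fell by 0.40 (SE 0.07). Mapre1, a microtubule end protein that binds melanophilin, rose from 69.4 ± 3.30 to 98.8 ± 1.69 CPM (0.51, SE 0.06, adjusted p = 8.4e-04). The kinesin genes Kif5a (-0.77, SE 0.09) and Kif1a (-0.39, SE 0.08) and the light chain Klc2 (-0.38, SE 0.08) fell, and the light chain Dynll2, shared by dynein and myosin Va, was at -0.04 (SE 0.08). Those that fell came to 4 without control library 7 and 2 with the acinar covariate, under which Kif1a (-0.29, SE 0.11, adjusted p = 0.137) and Klc2 (-0.38, SE 0.12, adjusted p = 0.0892) no longer passed. Over all genes tested, 1355 were called lower without control library 7 and 785 with the covariate, against 1864 in the main fit.

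All 29 docking and fusion genes listed were tested: 7 rose, 12 fell and 10 missed the threshold, where the shares over all genes were 11.8% and 12.6%. The median was -0.09, against -0.01. The syntaxins Stx1a (log2 -0.87, SE 0.10) and Stx3 (-0.58, SE 0.08) and the GTPase Rab3b (-0.75, SE 0.09), whose family shares effectors with Rab27, fell. Snap25, their SNARE partner, rose from 186 ± 11.5 to 387 ± 17.9 CPM (1.05, SE 0.08, adjusted p = 6.3e-05). Complexin gene Cplx2 (0.58, SE 0.10), synaptotagmin Syt4 (0.53, SE 0.11) and Rab8a (0.35, SE 0.07), a GTPase that Sytl4 also binds, rose, and the vesicle SNARE Vamp2 was at 0.04 (SE 0.08). Fewer fell when 1 library was left out: 9 if it was knockout library 5 and 7 if knockout library 4 or 6 or control library 7. Without control library 16 there were 6, and without control library 10 there were 5. Those that rose came to 4 without knockout library 5 and to 8 without knockout library 6, with the other libraries between. The acinar covariate left 3 higher and 5 lower. Under it Syt4 (0.38, SE 0.17, adjusted p = 0.197) and Rab8a (0.23, SE 0.10, adjusted p = 0.176) were no longer past the threshold. Calls over all genes tested dropped too, from 1736 higher and 1864 lower in the main fit to 926 and 785 with the covariate. Leaving out 1 library gave 1153 to 1590 higher and 1225 to 1433 lower over all genes tested.

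**Figure D5:**
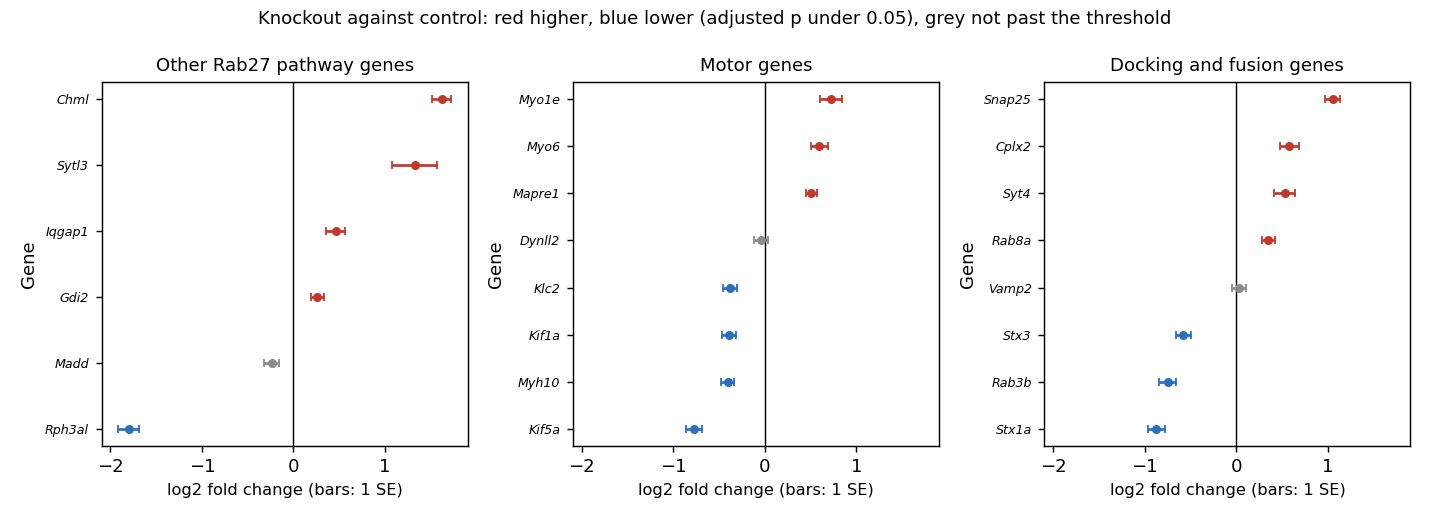
Log2 fold change (knockout against control, with 1 SE either side) of the genes of the 3 lists named in the text, red where higher, blue where lower and grey where not past an adjusted p of 0.05. Rph3al (-1.80) and Stx1a (-0.87) are lowest, and Chml (1.62) and Snap25 (1.05) highest, of the genes plotted from their lists.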

How the data were processed

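Bulk islet RNA was compared between 3 knockout and 3 control libraries. The deposited files hold raw gene counts (1 file a library) and the authors' own comparison, whose columns are scaled mean counts (a signal), the fold or ratio of those means, the log2 of it, and p-values. The submitters' processing notes name TopHat2 2.1.0, Cufflinks 2.0.2, bcl2fastq 1.8.4 and DESeq, on build mm9. The read counter, annotation and strand setting were not given in the sources used here. Reads shared by overlapping or near-copy genes therefore cannot be told apart. Libraries of 1 genotype differed beyond counting noise (chi-square 15.9 to 41.5 per degree of freedom).

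Counts were fitted in R 4.3.3 with edgeR 4.0.16: filterByExpr (minimum count 10, minimum total 15; 14770 of 23284 genes kept), TMM factors (0.988 to 1.021), robust quasi-likelihood F test, Benjamini-Hochberg adjustment over all genes, threshold 0.05. Adjusted p-values are from this fit unless another tool is named. SEs were derived from its F statistic. Alternatives used DESeq2 1.42.0, limma 3.58.1 (voom), upper-quartile factors, no filter, no robust estimation, the log2 acinar marker sum as covariate, and leaving out each library. The tests were also run on simulated counts with the same dispersion for every gene. The covariate used there was balanced between genotypes, so the fit with the acinar sum was not checked. The members and lists were chosen with earlier results of these data known. Named genes were the 10 members, Neurod1, up to 4 genes per list and direction with the smallest p, the most abundant gene per list that did not pass, and the 5 genes most like Mlph, except that some genes the rule picked are not reported here; Dct, Mitf, Pmel, Tyr and Tyrp1, beta cell markers and the neighbours of Mlph were added after their values were seen. Marker sums are CPM without TMM factors.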

Additional observations from a re-analysis of the deposited data

How the results depend on the processing

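The calls of Mlph, Exph5, Myo5a, Rab27a, Rab27b, Sytl1 and Sytl2 were the same under all 12 alternatives. Mlph ranged from -4.17 to -3.69, Exph5 from 0.70 to 0.82 and Myo5a from 0.52 to 0.71. Of 120 recomputed member values 7 changed their call: 5 of Myrip, 1 of Sytl4 and 1 of Sytl5. With the acinar covariate 1 member was lower (2 in the main analysis), and leaving out 1 library left 1 to 2; the number higher stayed at 3, but with the covariate Sytl5 stood in for Sytl4. Of the other Rab27 pathway genes 2 were lower with DESeq2, upper-quartile factors or the acinar covariate. Of the motor genes 2 were lower with the covariate and 4 to 7 leaving out 1 library. Of the docking genes 3 were higher and 5 lower with the covariate, and 4 to 8 were higher and 5 to 9 lower leaving out 1 library. Over all genes tested, 926 were higher and 785 lower with the covariate, and 1153 to 1590 and 1225 to 1433 leaving out 1 library. The main fit had 1736 higher and 1864 lower, DESeq2 1744 lower and upper-quartile factors 2095 lower. The cause was not tested. Coding length of a RefSeq protein was not run; GENCODE coding length was used instead, and the summed length of all exons moved 0 places in the order of levels; both were chosen after seeing the data. No paired analysis was run, because the replicate numbers give no pairing between genotypes, and whether any libraries were paired is not known. Of the 10 genes, Mlph had the lowest knockout counts, 15 to 32 per library, and Rab27b the largest SE, 0.25.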

Other observations

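Genes next to Mlph on mouse chromosome 1, in the RefSeq gene order of GRCm38.p6, were read beside it. They were added after their values were seen, so the values and adjusted p-values given here are a description. Rab17, a GTPase of epithelial cells and the second of the genes after Mlph in that order, had 15, 6 and 6 counts across the knockout libraries, against 24, 43 and 29 across the controls. Its level fell from 1.78 ± 0.47 to 0.60 ± 0.28 CPM (n = 3 per genotype; log2 -1.53, SE 0.41, edgeR adjusted p = 0.0277). Prlh, which lies between them, had at most 1 count in any library. On the same side Lrrfip1 was at -0.28 (SE 0.09, adjusted p = 0.0556), and on the other side Col6a3 was at -0.36 (SE 0.14, adjusted p = 0.0885) and Cops8 at -0.17 (SE 0.09, adjusted p = 0.173), none past the threshold.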
